A study of Mus musculus with 16 samples.

Results

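The 10 genes described here mark reactive astrocytes and were followed through injured mouse spinal cord: the intermediate filament genes Gfap, Vim and Nes, the secreted factors Serpina3n, Lcn2 and Ptx3, the receptors Osmr, Cd44 and S1pr3, and the transcription factor Stat3. They were chosen with earlier results of these data known and taken by name from a table of 43346 gene rows. All 10 were found and tested among the 23769 rows that passed a filter on low counts. RNA was sequenced from whole pieces of spinal cord of adult female wild type mice, 12 weeks old, of a strain spelled C57BL7J in the labels. A Fejota clip of 8 g, which bruises and squeezes the cord, was used on the lumbar cord at L1/L3, and injured cords were taken on day 30. A stretch of 9 mm of injured cord was cut in 3 mm pieces called above (rostral), epicenter and below (caudal). Uninjured cord, T11 to S1, was kept as 1 piece of 9 mm, which also carries the day 30 label. There are 16 libraries in 4 groups of 4. The labels do not say whether libraries come from separate animals or which pieces share a cord, so each p-value weighs a difference against the spread of these libraries, and that spread may be technical.

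Astrocytes answer injury of the central nervous system by growth of their processes and by a changed set of expressed genes, a state called reactive. Intermediate filaments build up in these cells, Gfap above all, and Stat3 is known to drive much of this program when cytokines that share the receptor subunit gp130, such as oncostatin M, activate Janus kinases. Around a spinal lesion reactive astrocytes form a dense border that separates inflammatory and fibrotic tissue from surviving neural tissue. Most of these genes are not limited to astrocytes: Vim and Cd44 are also expressed by fibroblasts and macrophages, Nes by blood vessel cells and ependymal cells, and Lcn2 by neutrophils. RNA of a whole piece of tissue cannot tell these sources apart, nor can it tell fewer cells of a type from less RNA per cell.

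Promoter sequence is shown for 3 of the 10 genes, the filament gene Gfap, the secreted inhibitor gene Serpina3n and the factor gene Stat3. The 10 genes moved together over the libraries, but the first principal component of all tested genes also held 66.4% of the variance. Shared regulation was not tested. Each line gives the 250 bases before the start that RefSeq annotates (GRCm38.p6), 5' to 3' on the strand of the gene. They lie at chr11:102897201-102897450 on the minus strand, chr12:104406458-104406707 on the plus strand and chr11:100939541-100939790 on the minus strand. Capitals in the Stat3 line mark a CCAAT box, read on the opposite strand as ATTGG, 79 bases before the start.
Gfap: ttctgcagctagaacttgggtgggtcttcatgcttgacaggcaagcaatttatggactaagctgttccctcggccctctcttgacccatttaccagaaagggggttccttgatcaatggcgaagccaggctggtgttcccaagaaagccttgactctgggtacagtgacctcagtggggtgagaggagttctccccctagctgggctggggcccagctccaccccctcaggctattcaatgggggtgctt
Serpina3n: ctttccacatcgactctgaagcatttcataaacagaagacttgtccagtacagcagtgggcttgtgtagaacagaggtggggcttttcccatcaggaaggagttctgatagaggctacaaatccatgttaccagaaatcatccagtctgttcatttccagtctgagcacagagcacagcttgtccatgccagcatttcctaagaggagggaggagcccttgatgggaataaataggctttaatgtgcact
Stat3: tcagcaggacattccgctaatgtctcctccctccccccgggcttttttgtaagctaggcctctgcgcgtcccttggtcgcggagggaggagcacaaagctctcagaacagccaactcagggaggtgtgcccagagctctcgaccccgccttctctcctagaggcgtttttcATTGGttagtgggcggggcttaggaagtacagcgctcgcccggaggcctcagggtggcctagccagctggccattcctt
The Stat3 window ends next to the first base of the gene, chr11:100885098-100939540 in the files' mm10 annotation. The Gfap window lies within the gene's span in the files, chr11:102887336-102900912, and in none of its exons. Serpina3n spans chr12:104406729-104414329. Not every member's window is upstream sequence in the GENCODE M21 annotation. All 250 bases of the windows of Vim and Osmr, 197 of that of Lcn2 and 15 of that of Nes lie in exons of the gene itself. No member's window held the STAT motif TTCNNNGAA or the AP-1 motif TGANTCA, searched on both strands. Of 32851 RefSeq windows of the same length 7.02% and 6.75% held them. A TATA box, spelled TATAAA, was found in the window of Vim alone, 32 bases before the start, and in 12.4% of all windows. A CCAAT box was found in the windows of Vim and Stat3 and in 33.8% of all windows. The TATAAA and CCAAT searches were added after the other results had been seen. An absent match says only that these letters are not in this window.

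Library totals ran from 65.6 to 90.0 M counts (M stands for 1e6), and the fewest reads of any member in any library were 40, for Lcn2 in uninjured cord. Levels are given as CPM, counts per M counts, after TMM scaling. A change is a log2 fold change ± SE from edgeR's quasi-likelihood test, and a gene is said to rise or fall where the Benjamini-Hochberg adjusted p over all tested rows is under 0.05. Below 3 stands apart from the other below libraries on the first principal component of all genes (112 against -9.98, 34.2 and 42.1), and above 1 from the other above libraries (-18.1 against -53.3 to -54.9). Where leaving out below 3 ended or gave a call of a member, or moved a count of list genes by at least 1.5 times, the value without it is given too. Markers of neurons, oligodendrocytes and astrocytes were read in every group, and no gene of the marker lists was at 0 in any group.

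All 10 genes were higher at the epicenter than in uninjured cord, where the rises ran from 0.83 for Stat3 to 6.60 for Lcn2 on the log2 scale with a median of 3.26 over the 10. Of all tested rows, 61.3% were called in this comparison and 31.9% were called higher. Above the injury 9 of 10 rose, with a median of 1.62, in a comparison where 3.54% of all rows were called and 3.09% were called higher. Below it all 10 rose, with a median of 2.97, against 39.3% of rows called and 23.6% called higher. The median of all tested rows lay between -0.03 and 0.02 in the 6 comparisons. These 3 comparisons share the same uninjured libraries. For all 10 genes the uninjured libraries lay under those of each segment without overlap, as for 30.5%, 13.4% and 22.9% of tested rows at the epicenter, above and below. With limma-voom 6 of the 10 were called above the injury.

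**Figure D1:**
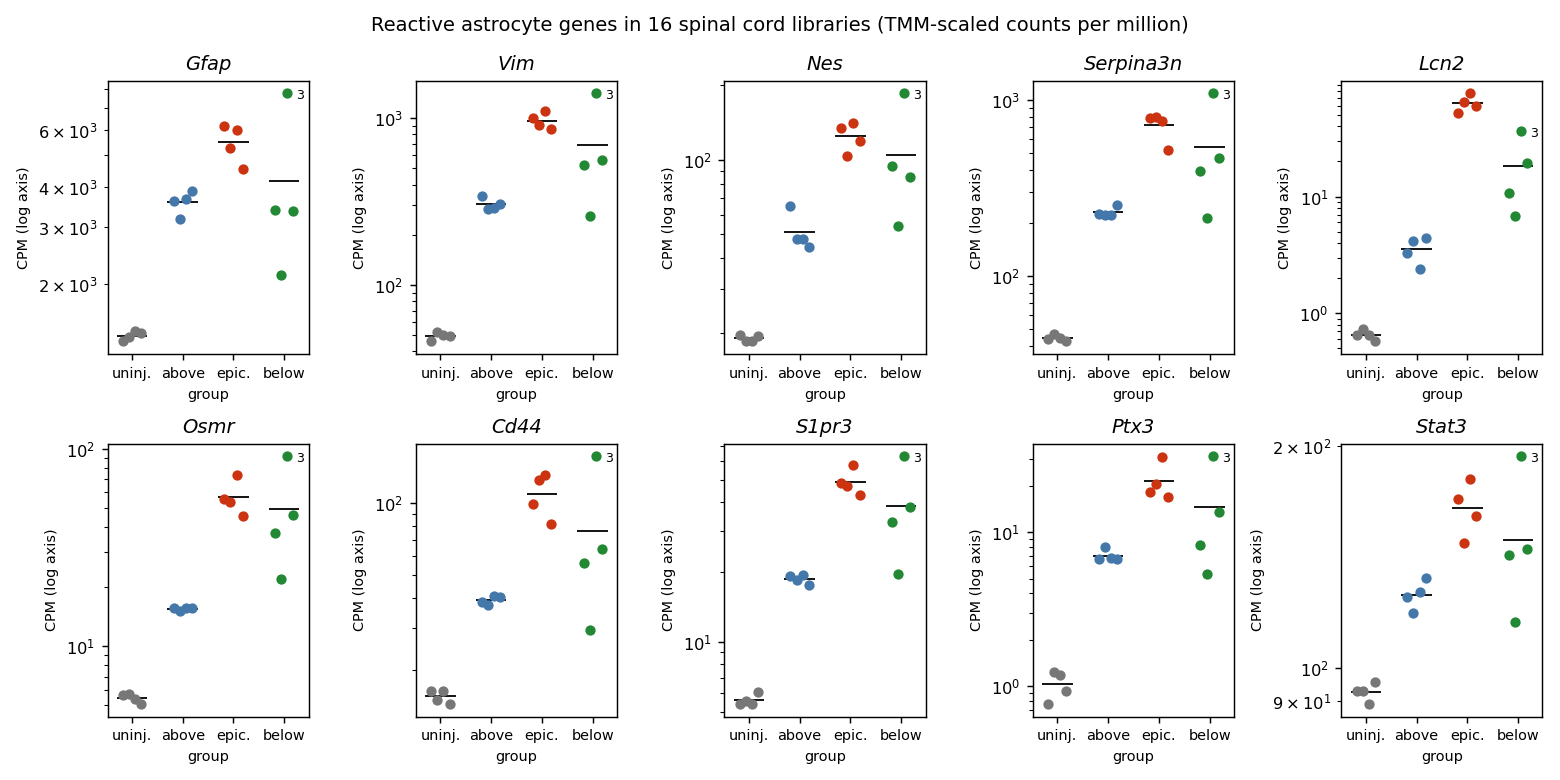
Level of each of the 10 genes in 16 libraries, in TMM-scaled CPM on a log axis of its own; points are libraries, horizontal lines are group means (n = 4), and the number 3 marks below 3. For every gene all uninjured points lie under all above and all epicenter points, and below 3 is the highest point of all for 9 of 10 genes.

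The intermediate filament genes held the most abundant transcript of the set. Gfap, the main filament protein of astrocytes, was at 1333, 1374, 1433 and 1417 CPM in uninjured libraries 1 to 4, at 3605, 3189, 3663 and 3895 above, at 6147, 5270, 5994 and 4537 at the epicenter and at 3390, 2132, 7766 and 3358 below. The uninjured libraries were the lowest and did not overlap with any segment, and the above libraries lay under all epicenter libraries. It rose 3.95-fold at the epicenter (log2 fold change 1.98 ± 0.28, edgeR adjusted p = 3.14e-05), which is among the smaller changes of the set. Above the injury it rose by 1.37 ± 0.28 (edgeR adjusted p = 0.0123) and below by 1.58 ± 0.28 (edgeR adjusted p = 0.00048).

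Vim encodes vimentin, a filament protein that partners GFAP in reactive astrocytes and is also found in fibroblasts, macrophages and vessels. It was at 45.9, 52.6, 50.0 and 49.8 CPM in uninjured cord, at 340.0, 286, 291 and 306 above, at 997, 904, 1098 and 863 at the epicenter and at 526, 261, 1405 and 561 below. The 4 epicenter libraries were close to each other, while below 2 lay under every above library and below 3 over every epicenter library. The rise was 19.5-fold at the epicenter (4.28 ± 0.37, edgeR adjusted p = 5.9e-07), 6.17-fold above (2.62 ± 0.35, edgeR adjusted p = 0.000668) and 13.9-fold below (3.80 ± 0.37, edgeR adjusted p = 3.67e-06).

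Nes encodes nestin, a filament protein of neural progenitors that reactive astrocytes express again. It was at 19.6, 18.4, 18.5 and 19.4 CPM in uninjured cord, at 64.7, 48.0, 47.7 and 44.1 above, at 135, 104, 141 and 119 at the epicenter and at 94.6, 53.9, 185 and 84.8 below. Above 1, which stands apart from its group, was the highest of its group, at 1.39 times the mean of the other 3. Nes rose by 2.72 ± 0.28 at the epicenter (edgeR adjusted p = 1.6e-06), 1.43 ± 0.27 above (edgeR adjusted p = 0.00707) and 2.46 ± 0.27 below (edgeR adjusted p = 9.66e-06).

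Among the secreted factors, Serpina3n, an inhibitor of serine proteases, was at 43.4, 46.3, 44.3 and 42.2 CPM in uninjured cord, at 224, 221, 221 and 254 above, at 792, 801, 764 and 523 at the epicenter and at 397, 213, 1093 and 466 below. Epicenter 4 was clearly lower than the other epicenter libraries and above 4 higher than the other above libraries. The rise was 16.3-fold at the epicenter (4.03 ± 0.37, edgeR adjusted p = 7.92e-07), 5.22-fold above (2.38 ± 0.35, edgeR adjusted p = 0.00137) and 12.3-fold below (3.62 ± 0.36, edgeR adjusted p = 4.67e-06).

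Lcn2 encodes lipocalin 2, a secreted protein that binds iron-loaded bacterial siderophores. It was at 0.647, 0.731, 0.657 and 0.573 CPM in uninjured cord, at 3.31, 4.19, 2.41 and 4.43 above, at 52.3, 64.3, 76.5 and 60.0 at the epicenter and at 10.8, 6.81, 36.2 and 19.3 below. No group overlapped with another, and the order was uninjured, above, below and epicenter. The fitted rise at the epicenter was 96.8-fold (6.60 ± 0.47, edgeR adjusted p = 2.41e-07), a change that 0.517% of tested rows exceeded. It rose by 2.45 ± 0.43 above (edgeR adjusted p = 0.00485; limma-voom did not call it, adjusted p = 0.124, in a range of 2.73e-08 to 0.124 over 25 alternatives) and by 4.80 ± 0.45 below (edgeR adjusted p = 2.77e-06). Summed markers of neutrophils, which also make lipocalin 2, were at 55.1, 168, 131 and 422 CPM in epicenter libraries 1 to 4. Epicenter 4 had most of them and epicenter 3 most Lcn2, while epicenter 1 had least of both. Above 4 was the highest above library for both, at 23.7 and 4.43 CPM. Below 1 had most of the markers, at 39.4 CPM, and below 3 most Lcn2. Group means of the sum were 1.87, 11.0, 27.8 and 194 CPM in uninjured, above, below and epicenter libraries, the order of Lcn2. Their part in the rise of Lcn2 was not tested.

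Ptx3 encodes pentraxin 3, a pattern recognition protein that belongs to the set of genes reported in astrocytes after ischemia. It was at 0.76, 1.23, 1.19 and 0.932 CPM in uninjured cord, at 6.71, 8.05, 6.77 and 6.72 above, at 18.2, 20.7, 30.9 and 17.0 at the epicenter and at 8.29, 5.32, 31.4 and 13.5 below. Uninjured, above and epicenter libraries formed 3 separate ranges, while the below libraries reached from under the above range to just over the epicenter range. Ptx3 rose by 4.39 ± 0.46 at the epicenter (edgeR adjusted p = 1.92e-06), 2.78 ± 0.44 above (edgeR adjusted p = 0.00251) and 3.82 ± 0.45 below (edgeR adjusted p = 1.48e-05).

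Of the receptors, Osmr, the receptor subunit that binds oncostatin M together with gp130, was at 5.64, 5.72, 5.40 and 5.08 CPM in uninjured cord, at 15.5, 15.1, 15.7 and 15.5 above, at 55.5, 53.6, 73.2 and 45.4 at the epicenter and at 37.5, 21.9, 91.7 and 46.1 below. The above libraries were nearly level, and every below library was over them. Osmr rose by 3.38 ± 0.32 at the epicenter (edgeR adjusted p = 9.49e-07), 1.50 ± 0.30 above (edgeR adjusted p = 0.0115; 0.075 with limma-voom, in a range of 3.29e-08 to 0.075 over 25 alternatives) and 3.17 ± 0.32 below (edgeR adjusted p = 4.64e-06).

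Cd44, the cell surface receptor for hyaluronan and osteopontin, was at 16.4, 15.1, 16.4 and 14.5 CPM in uninjured cord, at 38.4, 37.4, 40.9 and 40.3 above, at 98.8, 124, 130.2 and 81.2 at the epicenter and at 56.0, 29.4, 156 and 64.3 below. Below 2 was under all above libraries, so above and below overlapped. Cd44 rose by 2.80 ± 0.36 at the epicenter (edgeR adjusted p = 1.16e-05) and 2.29 ± 0.35 below (edgeR adjusted p = 0.000144). Above the injury the rise of 1.33 ± 0.34 lay close to the threshold (edgeR adjusted p = 0.0429), and it was called in 10 of 25 alternatives, with adjusted p between 4.92e-08 and 0.121.

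S1pr3 encodes a receptor for sphingosine 1-phosphate, a lipid signal. It was at 5.38, 5.54, 5.40 and 6.08 CPM in uninjured cord, at 19.3, 18.4, 19.4 and 17.6 above, at 48.5, 46.8, 58.1 and 43.0 at the epicenter and at 32.7, 19.5, 63.2 and 38.0 below. Every below library was over every above library. S1pr3 rose by 3.13 ± 0.25 at the epicenter (edgeR adjusted p = 3.69e-07), 1.74 ± 0.24 above (edgeR adjusted p = 0.00103) and 2.78 ± 0.25 below (edgeR adjusted p = 2.31e-06). In the GENCODE M21 annotation 1.01% of its exonic bases overlap Gm32834 on the opposite strand, which the unstranded libraries cannot separate.

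Stat3, the transcription factor downstream of gp130 receptors, changed least of the 10 at the epicenter. It was at 92.9, 93.0, 89.2 and 95.5 CPM in uninjured cord, at 124, 118, 127 and 132 above, at 169, 148, 181 and 161 at the epicenter and at 142, 115, 194 and 145 below. All segments lay over the uninjured libraries without overlap. It rose 1.78-fold at the epicenter (0.83 ± 0.12, edgeR adjusted p = 3e-05) and 1.61-fold below (0.69 ± 0.12, edgeR adjusted p = 0.000375). Above the injury the difference of 0.44 ± 0.12 did not pass (edgeR adjusted p = 0.0537), and it was called in 7 of 25 alternatives, with adjusted p between 4.76e-05 and 0.152 (edgeR adjusted p = 0.00118 without below 3). STAT3 protein is activated by phosphorylation, which RNA counts do not measure, and 0.756% of the gene's exonic bases overlap Stat5a on the opposite strand.

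**Figure D2:**
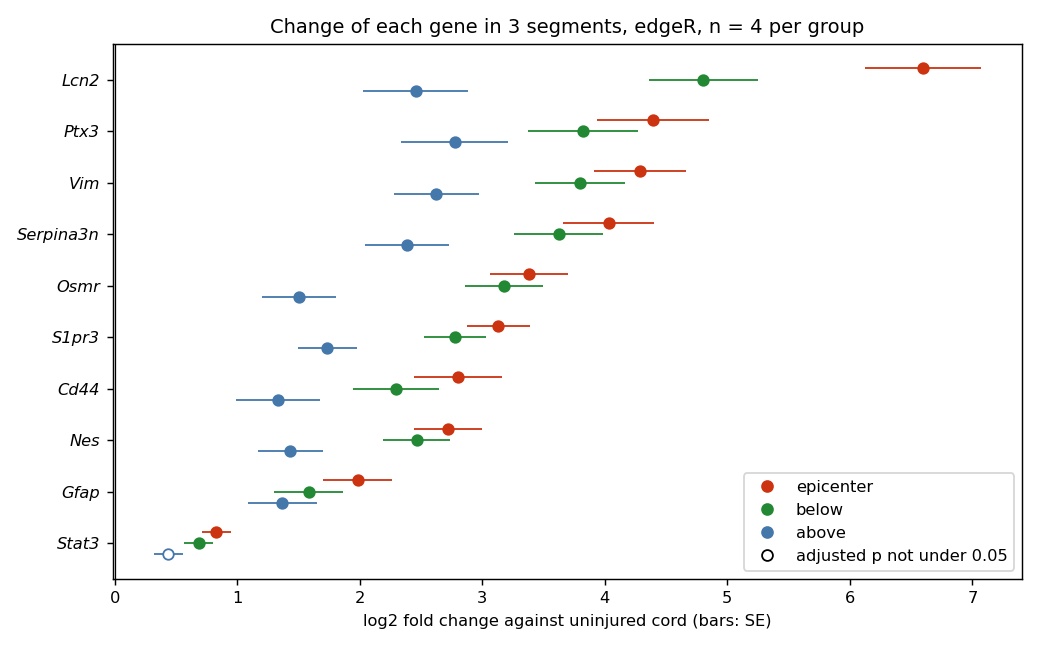
Log2 fold change of each gene against uninjured cord in the 3 segments (edgeR, n = 4 per group); bars are SE and the open point is not called. Lcn2 changed most at the epicenter (6.60) and Stat3 least in every segment, with 0.44 above the injury not called.

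Compared per kilobase of exon, the only scale on which levels of different genes can be set side by side, Gfap was the most abundant member in every group, at 329 ± 10.6, 851 ± 69.7, 1301 ± 175 and 987 ± 586 CPM per kb in uninjured, above, epicenter and below libraries (mean ± SD, n = 4). Serpina3n ranked next and Vim after it in every group, at 349 ± 64.0 and 204 ± 22.1 CPM per kb at the epicenter. Lcn2 had the lowest level of the 10 in uninjured cord, at 0.249 ± 0.0246 CPM per kb, and ranked 4 at the epicenter, at 24.1 ± 3.86. Stat3 ranked 4 in uninjured cord at 9.72 ± 0.273 and 6 at the epicenter at 17.3 ± 1.46. Osmr was the lowest in all 3 injured groups, at 4.70 ± 0.964 CPM per kb at the epicenter.

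The other members did not rise in proportion to Gfap at the epicenter or below the injury. Above it 6 of 9 did not. For each library the reads of a gene were divided by the reads of Gfap, a ratio that does not depend on scaling between libraries. Of all tested rows 8.58% had a larger log2 fold change than Gfap at the epicenter, 3.24% above and 8.08% below. A fall relative to Gfap is therefore what most rows would show, and the share of rows whose ratio differs was not computed. At the epicenter 9 of 9 ratios differed from uninjured cord, 8 of them higher and that of Stat3 lower. Each of these had an exact permutation p = 0.0286 (two-sided, 4 against 4), the smallest this design allows, and 0.0321 after Benjamini-Hochberg adjustment over 27 tests. Vim went from 3.57 ± 0.174 reads per 100 Gfap reads in uninjured cord to 8.55 ± 0.777 above, 17.7 ± 1.24 at the epicenter and 15.6 ± 2.50 below (SD, n = 4). Lcn2 went from 0.0470 ± 0.00530 to 0.101 ± 0.0283, 1.17 ± 0.215 and 0.420 ± 0.125. The ratio of Stat3 moved the other way, from 6.67 ± 0.316 to 3.51 ± 0.141, 3.03 ± 0.362 and 4.10 ± 1.21. The level of Stat3 itself was higher in each segment, by less than that of Gfap.

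Above the injury 6 of 9 ratios to Gfap differed: those of Vim, Serpina3n, Lcn2, S1pr3 and Ptx3 were higher and that of Stat3 lower (exact permutation p = 0.0286, adjusted 0.0321). The ratios of Nes (log2 difference 0.05, exact permutation p = 0.771), Osmr (0.14, exact permutation p = 0.143) and Cd44 (-0.03, exact permutation p = 0.657) did not pass. Cd44 stood at 1.12 ± 0.0878 reads per 100 Gfap reads in uninjured cord and 1.10 ± 0.0609 above, with overlapping libraries. Below the injury 8 ratios were higher and that of Stat3 lower (exact permutation p = 0.0286, adjusted 0.0321). With 1 library left out the smallest exact p is 0.0571, so no ratio can pass then.

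**Figure D3:**
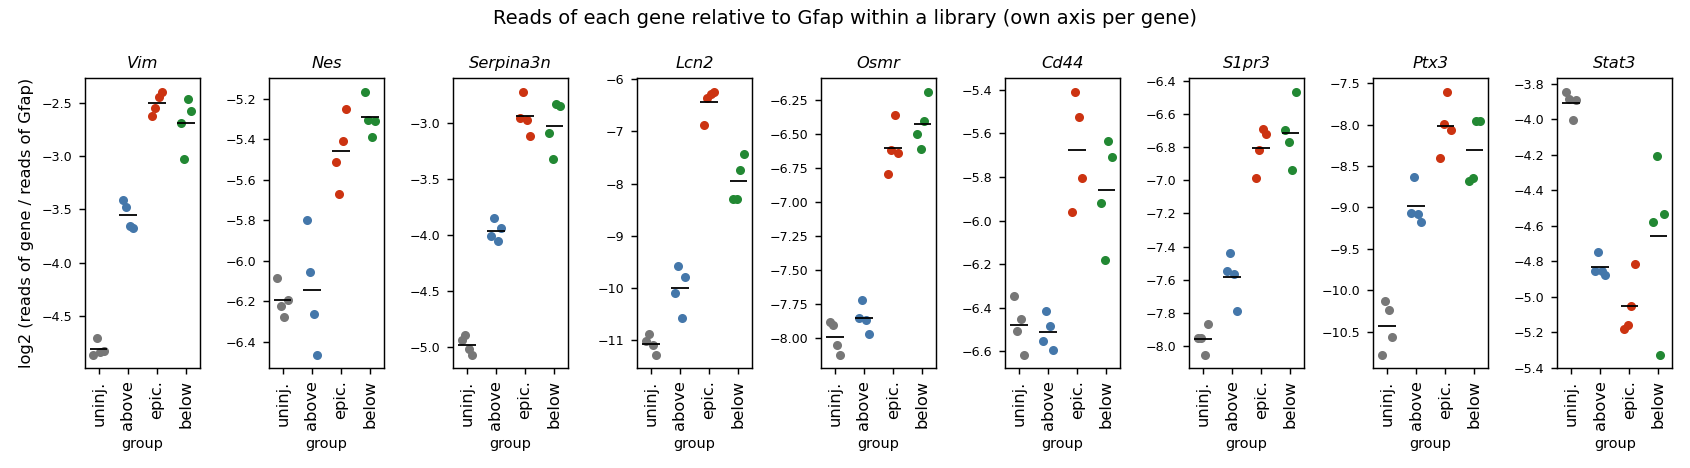
Log2 of the reads of each gene over the reads of Gfap in the same library, by group, on an axis of its own per gene; points are libraries and lines are group means (n = 4). At the epicenter 8 of 9 ratios are higher than in uninjured cord and that of Stat3 is lower.

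Between segments, the epicenter stood over the segment above for 9 of 10 genes, with a median difference of 1.54 over the 10, in a comparison where 52.7% of rows were called and 28.3% were called higher. Lcn2 differed most, by 4.14 ± 0.41 (edgeR adjusted p = 7.11e-06), followed by Osmr at 1.88 ± 0.30 (edgeR adjusted p = 0.00017). Gfap did not pass, at 0.61 ± 0.27 (edgeR adjusted p = 0.0718), although its epicenter libraries were all over its above libraries. Without below 3, which is in neither group compared, that difference passed (edgeR adjusted p = 0.000754). For all 10 genes the epicenter and above libraries did not overlap in this direction, as for 26.6% of tested rows.

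The epicenter and the segment below differed in Lcn2 alone, by 1.79 ± 0.37 (edgeR adjusted p = 0.00628) and without overlap, where 21.3% of all rows were called, 11.0% were called higher and 8.73% were higher without overlap. The other 9 differences ran from 0.14 ± 0.12 for Stat3 to 0.57 ± 0.39 for Ptx3, with adjusted p from 0.281 to 0.629. Below 3 lay over every epicenter library in 9 of 10 genes, Lcn2 being the exception at 36.2 CPM against at least 52.3. On the first principal component of all genes, too, below 3 lay past every epicenter library (112 against 87.9 to 105). The share of all tested rows with below 3 over every epicenter library was not computed. Below 3 stood at 3.13 times the mean of the other below libraries for Vim, 3.47 times for Ptx3, 2.62 times for Gfap and 1.44 times for Stat3. Below 2 was the lowest below library for all 10 genes.

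Without below 3 all 10 genes were higher at the epicenter than below. In that fit 11056 of all genes were called in either direction, against 5062 of 23769 with below 3. Calls were thus far more frequent among all genes too, and the share called higher in that fit was not computed. Gfap then differed by 0.89 ± 0.14 (edgeR adjusted p = 0.000157), Vim by 1.10 ± 0.19 (edgeR adjusted p = 0.000213), Lcn2 by 2.37 ± 0.27 (edgeR adjusted p = 1.1e-05) and Stat3 by 0.29 ± 0.08 (edgeR adjusted p = 0.00823). In a fit of only the libraries compared, 0 of the 10 were called by edgeR and 1 had an unadjusted p under 0.05, Lcn2 at 1.76 ± 0.46 (edgeR adjusted p = 0.0709). Over 25 alternatives the adjusted p of Lcn2 ran from 9.17e-06 to 0.0709. The rises from uninjured to below cord were called for all 10 genes with and without below 3; without it that of Gfap was 1.09 and that of Cd44 1.68, against 1.58 and 2.29 with it.

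**Figure D4:**
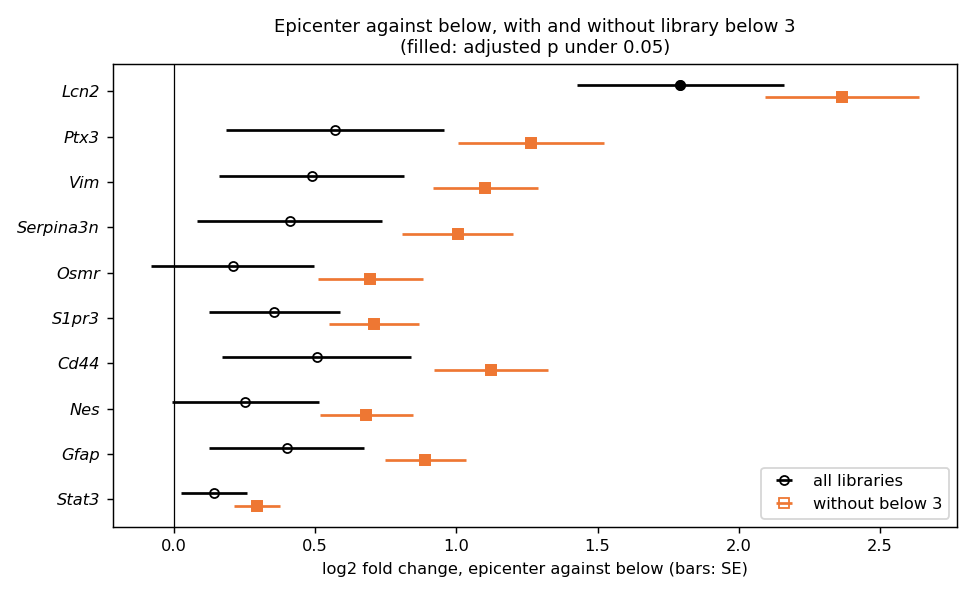
Log2 fold change of epicenter against below for each gene with all libraries (black circles) and without below 3 (orange squares); bars are SE and filled symbols are called. Lcn2 is called both ways, at 1.79 and 2.37, and the other 9 genes only without below 3.

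Set against the segment below, 7 genes were lower above the injury, where 24.4% of all rows were called and 15.2% were called lower. The differences were largest in Lcn2, at -2.35 ± 0.38 (edgeR adjusted p = 0.000792), and Osmr, at -1.67 ± 0.30 (edgeR adjusted p = 0.00147). Vim, Nes, Serpina3n, Cd44 and S1pr3 differed by -1.24 to -0.96, with edgeR adjusted p from 0.0063 to 0.0496. Ptx3 (-1.05 ± 0.39, edgeR adjusted p = 0.063), Stat3 (-0.25 ± 0.12, edgeR adjusted p = 0.13) and Gfap (-0.21 ± 0.27, edgeR adjusted p = 0.586) did not pass. Lcn2, Osmr and S1pr3 were lower above without any overlap, as were 12.6% of tested rows. Without below 3 the value of Gfap turned to 0.28 (edgeR adjusted p = 0.179) and that of Cd44 was -0.34 (edgeR adjusted p = 0.232), so neither passed. In the fit with all libraries the call of Cd44 lay at the threshold (-0.96 ± 0.34, edgeR adjusted p = 0.0496) and was made in 6 of 25 alternatives.

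Genes of other reactive states and of the pathways around the members were read from lists, whose members count against 31.9% of rows called higher at the epicenter, 3.09% above and 23.6% below, and 29.3% and 15.7% called lower at the epicenter and below. These shares belong to the fit with all libraries. The lists were chosen with earlier results of these data known, so their counts describe these genes and test nothing. Without below 3, 2298 genes were called in either direction above against 841 with it. At the epicenter they were 15826 against 14565 and below 8410 against 9346. Several lists have no call above the injury by edgeR. Among these the genes with an unadjusted p under 0.05 were 2 receptors and kinases, 1 filament partner, 1 sphingosine gene, 4 resting astrocyte genes, 1 ependymal gene and 0 of the lipocalin partners, pentraxins, neuron and oligodendrocyte markers. DESeq2 called 2 of the receptors and kinases and 1 resting astrocyte gene and 0 of the other lists named, and limma-voom called 0. Of 6 other genes of the pan-reactive set, 6 rose at the epicenter (median 4.04), 4 above (1.96) and 6 below (3.31). Steap4, a metalloreductase, rose by 5.81 ± 0.54 at the epicenter (edgeR adjusted p = 8.12e-07) and Timp1, an inhibitor of metalloproteases, by 5.38 ± 0.32 (edgeR adjusted p = 7.3e-08). The chemokine gene Cxcl10 rose by 4.64 ± 0.43 and the small heat shock protein gene Hspb1 by 3.44 ± 0.32 (edgeR adjusted p = 7.87e-07 and 8.67e-07).

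Of the sets formerly labelled A1, from astrocytes after lipopolysaccharide, and A2, from astrocytes after ischemia, 11 of 12 and 11 of 11 rose at the epicenter (without below 3, 1 A1 gene also fell), with medians of 2.91 and 3.40. Above the injury 9 of 12 and 6 of 11 rose, and below it 11 of 12 and 10 of 11. In the A1 set the complement inhibitor gene Serping1 rose by 5.60 ± 0.51, Ugt1a1 by 4.24 ± 0.41, Gbp2 by 3.28 ± 0.22 and Psmb8 by 3.25 ± 0.26 at the epicenter. In the A2 set Tgm1, a transglutaminase, rose by 6.23 ± 0.46, Emp1 by 4.15 ± 0.31 and the lipopolysaccharide co-receptor gene Cd14 by 3.73 ± 0.28. Slc10a6 had no read in any uninjured library and 0.503 ± 0.250 CPM at the epicenter. The difference between the sets was not tested.

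Among the ligands upstream of Stat3, 6 of 7 tested gp130 cytokine genes rose at the epicenter (median 2.25), 4 above (0.78; 6 without below 3) and 6 below (1.64); Il6 had too few reads to be tested. Osm, which encodes oncostatin M, the ligand of Osmr, went from 0.0581 ± 0.0285 CPM in uninjured cord to 0.583 ± 0.0930 above, 2.58 ± 0.337 at the epicenter and 1.86 ± 1.12 below, which are few reads in uninjured cord. The rise of Osm was 5.46 ± 0.46 at the epicenter (edgeR adjusted p = 5.14e-07) and 3.32 ± 0.49 above (edgeR adjusted p = 0.00142). Cntf, ciliary neurotrophic factor, went from 3.85 ± 0.841 to 39.7 ± 2.78 CPM at the epicenter (3.37 ± 0.28, edgeR adjusted p = 3.93e-07). Lif, leukemia inhibitory factor, rose by 2.25 ± 0.24.

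Tested rows were called in both directions at the epicenter, with 31.9% higher and 29.3% lower. So were the receptors and Janus kinases between ligand and Stat3. At the epicenter 4 of 8 rose and 2 fell (median 0.38), above 0 of 8 were called by edgeR, and below 4 rose and 2 fell (0.31). Without below 3, 1 rose and 1 fell above, and 4 rose and 1 fell below; under library totals 1 rose above. Il6ra, the interleukin 6 receptor subunit, rose by 2.12 ± 0.24 at the epicenter, Il11ra1 by 1.00 ± 0.12, the kinase gene Tyk2 by 0.98 ± 0.12 and Il6st, which encodes gp130, by 0.87 ± 0.17 (edgeR adjusted p = 0.000484 for Il6st). The receptor gene Lifr (-0.57 ± 0.10, edgeR adjusted p = 0.000158) and the kinase gene Jak1 (-0.51 ± 0.08, edgeR adjusted p = 0.000114), named after their values were seen, fell.

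Of the other STAT genes 5 of 6 rose at the epicenter, 2 above (3 without below 3) and 5 below. Stat4 rose by 3.82 ± 0.33 from a low level of 0.0683 ± 0.0255 CPM, Stat6 by 2.78 ± 0.26 and Stat5a by 1.10 ± 0.16. Inhibitors of the pathway rose in 5 of 7 cases at the epicenter, 1 above and 4 below. Socs3, the feedback inhibitor that STAT3 induces, went from 1.69 ± 0.170 CPM in uninjured cord to 6.18 ± 0.649 above, 21.9 ± 2.16 at the epicenter and 15.4 ± 6.70 below. It rose by 3.69 ± 0.27 at the epicenter (edgeR adjusted p = 2.41e-07) and was the inhibitor called above the injury, by 1.87 ± 0.25 (edgeR adjusted p = 0.000823). Socs1 rose by 1.26 ± 0.22 at the epicenter, Socs2 by 0.72 ± 0.16 and Pias3 by 0.62 ± 0.08.

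**Figure D5:**
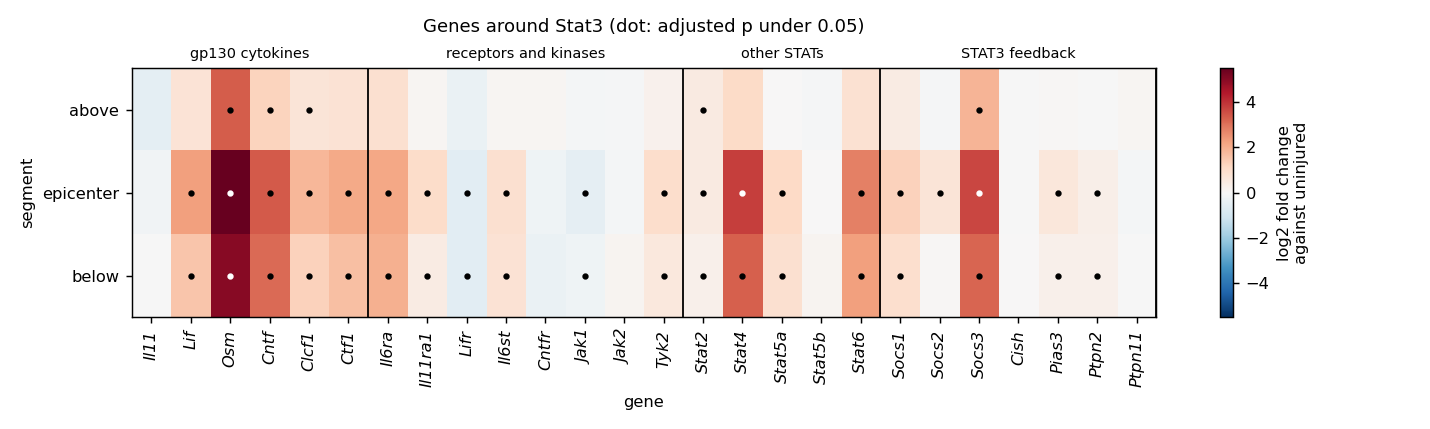
Log2 fold change against uninjured cord (color) of tested gp130 cytokine genes, their receptors and kinases, other STAT genes and inhibitors of the pathway in the 3 segments; dots mark edgeR adjusted p under 0.05. Of the genes drawn, Osm rises most at the epicenter, at 5.46, Socs3 is the inhibitor called above the injury, and with TMM scaling edgeR calls 0 of the receptors and kinases there.

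The partners of the other members were read the same way. Of 8 other intermediate filament and linker genes 6 rose at the epicenter (5 without below 3), 0 were called above by edgeR and 4 rose below; Lmna, lamin A, rose by 1.45 ± 0.15 and Des, desmin, by 2.32 ± 0.39, while Krt8 (3.12 ± 0.87) and Krt18 (1.13 ± 0.47) had under 1 CPM in every group. Of 9 other genes of sphingosine 1-phosphate, 5 rose and 3 fell at the epicenter, 0 were called above (2 rose without below 3) and 4 rose and 3 fell below (3 and 2 without below 3). The receptor genes S1pr2 and S1pr4 rose by 2.55 ± 0.31 and 1.64 ± 0.29, the lyase gene Sgpl1 by 1.72 ± 0.28 and the kinase gene Sphk2 by 0.76 ± 0.10. Of 12 genes of hyaluronan and CD44 ligands, 9 rose and 1 fell at the epicenter, 2 rose above (5 without below 3) and 8 rose below, where 1 also fell without below 3. Spp1, osteopontin, a ligand of CD44, rose by 3.23 ± 0.54 at the epicenter, Cemip, which takes part in hyaluronan breakdown, by 3.12 ± 0.35, the hyaluronan synthase gene Has2 by 2.11 ± 0.36 and the hyaluronan receptor gene Hmmr by 2.08 ± 0.28.

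Of 3 partners of Lcn2, the protease gene Mmp9 rose by 1.23 ± 0.35 and the receptor gene Slc22a17 fell by 0.61 at the epicenter, 0 were called above and 1 fell below (0 without below 3). Of 4 tested pentraxin genes other than Ptx3, Nptx1 (-1.34 ± 0.37) and Nptxr (-0.71 ± 0.21) fell at the epicenter, and 0 were called above and below by edgeR (1 fell below without below 3). Of 7 tested paralogs of Serpina3n, 6 rose at the epicenter, 2 above (4 without below 3) and 5 below. Their levels stayed under 5 CPM, with Serpina3i at 3.34 ± 1.66, Serpina3m at 1.53 ± 0.464, Serpina3h at 1.21 ± 0.530 and Serpina3f at 0.419 ± 0.298 at the epicenter. Reads of such near-identical genes may be split between copies, so these values are uncertain.

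Tested rows were called in both directions, at the epicenter 31.9% higher and 29.3% lower and below 23.6% and 15.7%. Genes of resting astrocytes did not move in 1 direction either. Of 14, 3 rose and 4 fell at the epicenter (median 0.09), 0 were called above by edgeR (median 0.15; 3 rose without below 3), and 5 rose and 6 fell below (median 0.04). Without below 3 the split at the epicenter was 5 higher and 5 lower. Under library totals it was 5 higher and 4 lower at the epicenter and 7 higher and 4 lower below. Slc1a2, the main glutamate transporter of astrocytes, fell at the epicenter from 2577 ± 156 to 1624 ± 218 CPM (-0.67 ± 0.11, edgeR adjusted p = 0.000132). Glul, glutamine synthetase, was at 1314 ± 63.4 and 1133 ± 114 CPM (-0.21 ± 0.09, edgeR adjusted p = 0.0565). The summed level of the 14 lay at 9032 to 9688 CPM in uninjured cord, 9476 to 10135 above, 7403 to 8559 at the epicenter and 7562 to 9606 below. The top of the below range was below 3. The other below libraries were at 7562 to 8106 CPM, under every uninjured library.

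Markers of other cells that can express these genes were read beside the members. Of 10 microglia and macrophage markers 9 rose at the epicenter, 10 above and 9 below, and their summed level was 195 to 214 CPM in uninjured cord, 539 to 604 above, 2840 to 4652 at the epicenter and 711 to 6684 below. Library by library below, this sum was 2330, 711, 6684 and 2562 CPM, so below 3 was highest and below 2 lowest, as for the members. The sums of fibroblast, Schwann cell, mural and ependymal markers also had below 3 highest and below 2 lowest, so this order is not particular to microglia and macrophage markers. Lyz2 and Gpnmb rose by 7.88 ± 0.70 and 8.49 ± 0.78 at the epicenter. Fibroblast markers rose in 7 of 7 cases at the epicenter, 2 above and 7 below, with sums of 79.9 to 105 CPM in uninjured cord, 165 to 563 above, 3200 to 4443 at the epicenter and 576 to 2407 below. The top of the above range was above 1, and the fibroblast markers with most reads were Fn1 (4.35 ± 0.41) and Dcn (6.11 ± 0.65).

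Neutrophil markers rose in 8 of 8 cases at the epicenter, 6 above and 6 below, with sums of 1.72 to 2.04, 6.44 to 23.7, 55.1 to 422 and 19.9 to 39.4 CPM, and S100a9 and S100a8 rose by 6.92 ± 0.74 and 7.16 ± 0.73 at the epicenter. Schwann cell markers rose in 7 of 7 cases at the epicenter, 1 above and 7 below, with Prx at 5.64 ± 1.26, and their sum in above 1 was 366 CPM against at most 108 in the other above libraries. Endothelial markers rose in 4, 1 and 5 of 7 cases, with Vwf at 2.97 ± 0.29 and Flt1 at -0.15 ± 0.18, and mural markers in 4, 1 and 4 of 7 (3 above without below 3), with Pdgfrb at 1.65 ± 0.23 and Rgs5 at 0.17 ± 0.21; 1 mural marker fell at the epicenter. Ependymal markers rose in 3, 0 and 2 of 6 cases (2 above without below 3, and 4 below under library totals), with Foxj1 at 0.61 ± 0.18 and Rarres2 at 1.93 ± 0.19. Neuron markers fell in 5, 0 and 2 of 6 cases (4 below without below 3, and 0 there under library totals), with Snap25 at -1.27 ± 0.38 and Tubb3 at -0.42 ± 0.20, and oligodendrocyte markers in 4, 0 and 5 of 6, with Mbp at 0.05 ± 0.13. The summed neuron markers were at 510 CPM in below 3, 2060 to 2657 in the other below libraries and 1076 to 1771 at the epicenter. The part of any of these cells in the members' values was not tested.

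The 2 genes outside the set most like each member were found among 11616 genes with a mean of at least 10 CPM, by Pearson r of log2 CPM over the 16 libraries. These libraries differ by group for very many genes, so the values describe likeness of pattern only. Gfap was closest to Dhrs1 (0.992) and Flnc (0.991), Nes to Casp12 and Myo1f (both 0.994), and Lcn2 to Rnase4 (0.990) and Postn (0.989). Vim and Serpina3n shared Lpl (0.996 and 0.997) and Tlr2 (0.995 and 0.997). Osmr was closest to Cd84 (0.998) and Tlr13 (0.997), S1pr3 to Fam46c (0.997) and Blnk (0.996), Cd44 to Fcrls and Golm1 (both 0.991), Ptx3 to Cd109 (0.991) and Lpl (0.990), and Stat3 to Golm1 (0.988) and Hk2 (0.987). None of these genes is on the list of resting astrocyte genes, while Postn is on the fibroblast list and Cd109 in the A2 set. Which cells their RNA came from was not tested. Among the members themselves, r of the deviations from the group mean ran from 0.735 to 0.975 over 45 pairs of genes, with a median of 0.913. Without below 3 it ran from 0.357 to 0.937, with a median of 0.784. The same was not computed for pairs of other genes.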

How the data were processed

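The authors deposited 1 table of raw read counts per gene, not normalized, with a column per library for all 16 libraries, per the file headers. Tools listed in the submitters' processing notes, without role or order, are TopHat2 2.0.12, edgeR and Subread 1.4.4, and the build is mm10; per the labels' protocols the libraries came from 200 ng of RNA with the unstranded TruSeq v2 kit. How reads that match several genes were counted is not given in the sources used here. Every value column was mapped to a sample by its name.

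Counts were filtered with filterByExpr by group, scaled by TMM and fitted in edgeR 4.0.16 (R 4.3.3). The fit was 1 quasi-likelihood model of 16 libraries with a group term and no covariate. The step was tested on simulated counts of a fixed spread, for epicenter against uninjured. There 31% of 100 genes changed 1.5-fold and 90% of 100 changed 2-fold were called, and 3.2% of calls were false. A small difference that was not called may thus still be a change. Adjusted p-values follow Benjamini and Hochberg over 23769 rows, and a gene is called under 0.05. Levels per kb divide CPM by the exon length in the table. The prior count for log2 CPM was 2. Ratios to Gfap were tested by exact permutation of libraries. The alternatives were other scalings, filters and tools (DESeq2 1.42.0, limma-voom 3.58.1), fits of fewer libraries and a replicate block. Replicates of a group differed by more than counting noise, with a chi-square per degree of freedom of at least 6.40. 

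The members and lists were chosen with earlier results of these data known. All 10 members are named; of each pathway list, up to 4 called genes with the largest change at the epicenter; of each cell list, the 2 with the highest mean CPM; and for each member, the 2 most correlated genes. Any other gene is said to have been chosen after its values were seen. Single values of a few list genes are not reported here or drawn; counts and medians of their lists include them.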

Additional observations from a re-analysis of the deposited data

Results flagged for a closer look

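In 3 of 40 groups of 4 libraries (10 genes in 4 groups) the most extreme library lay further from its nearest neighbor, as a share of the group's range, than Dixon's critical value at 95% for 4 samples; chance gives about 1 in 20. Serpina3n was highest above the injury in above 4, at 254 CPM against 221 to 224 in the others, and lowest at the epicenter in epicenter 4, at 523 CPM against 764 to 801. Ptx3 was highest above the injury in above 2, at 8.05 CPM against 6.71 to 6.77. Below 3 was flagged for 0 genes.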

How the results depend on the processing

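Under 25 alternatives, which were other scalings, filters and tools, fits of fewer libraries, a replicate block and each library left out in turn, 1418 of 1500 values of the 10 genes kept their direction and their side of the threshold, 43 lost a call, 36 gained one and 3 reversed. The genes called above the injury against uninjured cord, 841, were 1485 with DESeq2, 269 with limma-voom, 3684 in a fit of only the libraries compared, 1661 without above 1 and below 3 together and 408 to 2298 with 1 library left out, the most without below 3. For epicenter against below, 5062 genes became 31 in the fit of only the libraries compared, 11268 without above 1 and below 3 and 2335 to 11056 with 1 library left out, again the most without below 3. Of the 10 members 1 was called there, against 0, 10 and 1 to 10 under the same settings. For above against below, 5788 genes became 1643 in the fit of only the libraries compared and 3588 to 8262 with 1 library left out, and the 7 members called became 2 and 5 to 9. The members called above the injury, 9, were 8 to 10 with 1 library left out. The ratios to Gfap called, 9 at the epicenter, 6 above and 9 below, became 0 in each comparison with 1 library left out, because the smallest exact p is then 0.0571.

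Reversed values were small. With 1 library left out Osmr ran from -0.038 (without below 2) to 0.70 in epicenter against below, and Gfap from -0.43 to 0.28 (without below 3) in above against below, and 0.28 without above 1 and below 3 together. The log2 ratio to Gfap above the injury ran from -0.065 (without above 1) to 0.16 for Nes and from -0.078 to 0.012 (without uninjured 1) for Cd44. The cause was not tested. Library totals in place of TMM moved the median of all genes by 0.14 in below against uninjured. Fits of lists without below 3 or without both libraries were chosen after seeing the data.

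The replicate numbers were not taken as pairs. Of 24 same-numbered pairs of libraries 6 had a correlation of deviations over 0.1, and 0 of the pairs of groups had all over it. The 24 include pairs with uninjured cord, which cannot share a cord with an injured piece, and all 6 were between injured pieces. For epicenter and below the same-numbered values were 0.112, 0.194, 0.309 and 0.0789, against -0.276 to 0.0885 for other numbers. Whether same-numbered pieces share a cord was not tested. With the replicate block 14764, 808, 9669, 12730, 4758 and 6165 genes were called in epicenter, above and below against uninjured, epicenter against above, epicenter against below and above against below, and 10, 10, 10, 9, 1 and 6 members. Stat3 above the injury was called with the block (0.43, edgeR adjusted p = 0.0411), and Cd44 in above against below was not (-0.81, edgeR adjusted p = 0.0705). At the lowest depth the limit that a count of 0 allows is 0.0457 CPM, and no library held under 40 reads of any of the 10.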
